A study of Mus musculus with 8 samples.

Results

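The complement genes described here are 9 genes that encode components of the cascade (C3, C4b, C1ra, C1s1, Cfb and Cfd) and regulators that hold it back (Serping1, Cd55 and Cd59a). They were taken by symbol, whatever their values, from the 19301 genes of the expression table, and 8 of the 9 were found. Cfd, the protease that activates factor B, was not analysed here. The samples were primary tendon stem cells (TSCs) of the mouse, cells grown out of collagenase-digested patellar tendon of C57BL/6J animals, with 4 biological replicates in high fat, high glucose (HFHG) medium and 4 in low glucose (LG) medium. The HFHG medium held 300 µM of the saturated fatty acid palmitic acid in addition to a raised glucose concentration, and the LG medium held 5.5 mM glucose and the vehicle of the fatty acid; both groups were cultured for 4 days, in medium with fetal bovine serum, before mRNA sequencing. The age of the donor animals and whether each replicate came from its own animal are not given in the sources used here, so the p-values measure the spread between these cultures. The comparison asks how a diabetes-like medium changes the mRNA of TSCs, here for the complement genes.

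Complement is a chain of proteases and binding proteins in blood and tissue fluid. In the classical pathway, C1q binds a target and switches on the proteases C1r and C1s, which cut C4 and C2; in the lectin pathway, collectins or ficolins and the MASP proteases do the same; in the alternative pathway, C3 that has been cut binds factor B, and properdin steadies the resulting enzyme. All routes meet at the cutting of C3, after which C5 to C9 can form a pore in a membrane. Cells guard themselves with C1 inhibitor (Serping1), which blocks C1r and C1s, with CD55, which takes apart the enzymes that cut C3, and with CD59, which stops the pore from forming. Liver makes most of the circulating proteins, but fibroblasts and macrophages also make many of them.

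Each value is an FPKM, the fragments on a gene divided by its length in kilobases and by the size of the library. The libraries held 34308108 to 37362725 reads, recovered from the deposited values as described under the processing. The first principal component carried 81.02% of the variance and separated the media, and LG replicate 4 stood apart from the other LG libraries on the second, which carried 4.18%. The fibroblast genes Col1a1, Col1a2, Dcn and Thbs4 were abundant in all libraries (means of 168 to 629 FPKM), whereas the tendon-defining genes Scx and Tnmd had group means of 0.614 to 2.27 FPKM. The macrophage gene Lyz2 had means of 1637 FPKM in HFHG and 1765 FPKM in LG, so mRNA of genes known from macrophages was also present in cultures labelled as TSCs. Adipoq, Plin1 and Lep of adipocytes, Cldn5 of endothelium and Ttr of hepatocytes had group means of at most 0.13 FPKM. Other genes of the same lists were higher, with means in HFHG and LG of 68.4 and 26.6 FPKM for Fabp4, 179 and 148 FPKM for Lpl, 0.393 and 1.04 FPKM for Vwf, 0.80 and 0.547 FPKM for Tek and 0.445 and 0.367 FPKM for Apoh.

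Of the 8 genes, 5 were higher and 2 lower in the HFHG group at an adjusted p-value below 0.05, and C1ra did not pass. That rule called 64.8% of the 11710 genes tested, 34.0% of them higher and 30.8% lower, so a count of 7 in 8 stands against a background in which most genes passed. The fold rule, under which a gene needs a log2 fold change above 1 and a p below 0.05 before adjustment, was met by Cd55 only, and after quantile normalization by Serping1 as well (1.12); it called 3.68% of all genes as higher, and its mirror called 1.65% as lower. The 4 HFHG values did not overlap the 4 LG values for 7 of the 8 genes and for 59.2% of all genes tested. The median log2 fold change was 0.40 over the 8 genes and 0.02 over all genes tested. For single genes, the exact permutation test (two-sided, 70 arrangements) gave p = 0.0286, the smallest p it can give, for each of the 7 genes without overlap, and p = 0.771 for C1ra. In bulk RNA, a change in the number of cells that make a transcript and a change in the RNA per cell cannot be told apart, and this holds for every result here.

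**Figure D1:**
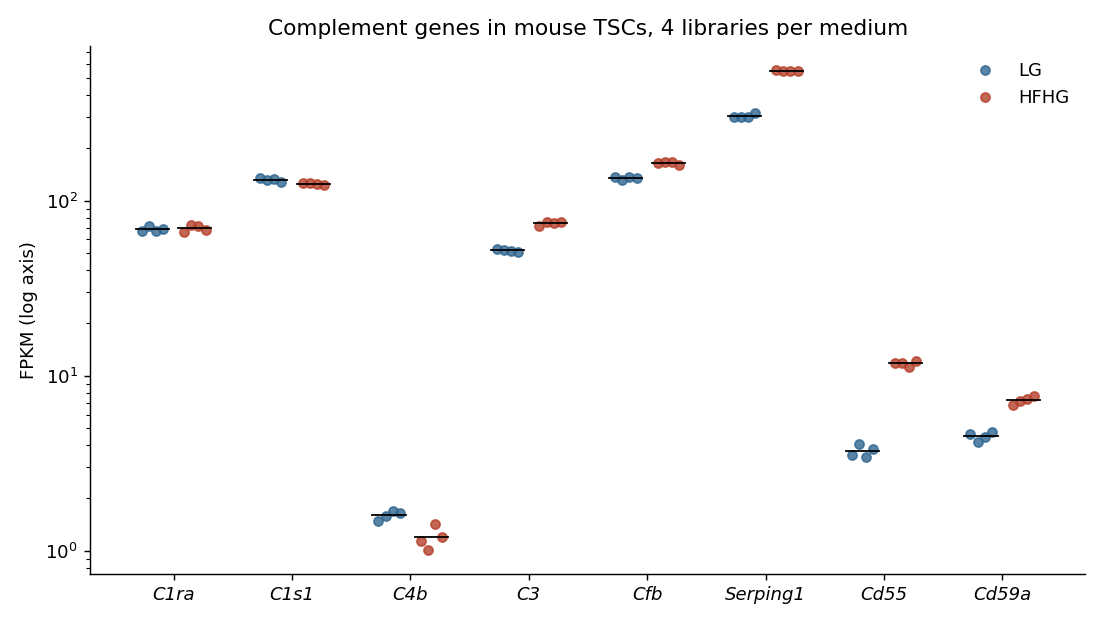
FPKM on a log axis for 8 complement genes, with 1 point per library (LG blue, HFHG red, 4 each) and a black line at each group mean. Cd55, Serping1, Cd59a, C3 and Cfb sit higher in HFHG without overlap, C4b and C1s1 sit lower, and the C1ra points of both media cover the same range.

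The windows upstream of the transcription start are shown for the 3 genes that rose and had a RefSeq promoter entry (C3, Cd55 and Cd59a) and, as a gene that did not rise, for C1s1. RefSeq entries (GRCm38.p6) were found for 5 of the 8 genes, and the first of the 2 entries of C1s1 is shown. Each line gives the 250 bases before the start, 5′ to 3′ on the strand of the gene, and capitals mark matches to any of 6 motifs searched on both strands.
C3: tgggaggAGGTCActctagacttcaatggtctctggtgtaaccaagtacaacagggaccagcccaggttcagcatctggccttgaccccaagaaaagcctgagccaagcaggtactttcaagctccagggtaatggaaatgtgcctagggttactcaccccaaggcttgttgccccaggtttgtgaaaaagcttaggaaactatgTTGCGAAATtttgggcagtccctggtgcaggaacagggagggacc
Cd55: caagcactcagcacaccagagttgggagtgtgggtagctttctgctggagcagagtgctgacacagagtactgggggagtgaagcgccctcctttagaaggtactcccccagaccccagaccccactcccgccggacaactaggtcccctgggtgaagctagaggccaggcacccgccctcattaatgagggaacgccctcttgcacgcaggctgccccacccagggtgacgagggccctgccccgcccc
Cd59a: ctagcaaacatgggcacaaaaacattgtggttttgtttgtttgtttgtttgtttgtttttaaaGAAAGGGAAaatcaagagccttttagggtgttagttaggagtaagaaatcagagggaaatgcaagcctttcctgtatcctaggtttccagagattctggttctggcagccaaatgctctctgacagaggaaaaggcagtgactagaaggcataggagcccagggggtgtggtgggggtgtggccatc
C1s1: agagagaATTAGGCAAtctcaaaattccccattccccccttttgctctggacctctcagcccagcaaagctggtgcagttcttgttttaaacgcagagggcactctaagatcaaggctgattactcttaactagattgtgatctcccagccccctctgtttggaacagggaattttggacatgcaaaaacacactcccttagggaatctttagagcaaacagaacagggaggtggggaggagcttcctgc
These windows lie at chr17:57228137-57228386 (C3, minus strand), chr1:130462745-130462994 (Cd55, minus strand), chr2:104095551-104095800 (Cd59a, plus strand) and chr6:124542360-124542609 (C1s1, minus strand). The motifs were searched in the whole 300 bases of an entry, which includes 50 bases after the start, and no 2 matches overlapped. C3 held the C/EBP motif TTGCNNAAT as TTGCGAAAT, starting 45 bases before the start, and the nuclear receptor motif AGGTCA, starting 243 bases before it. Cd59a held the ISRE core GAAANNGAA as GAAAGGGAA, 187 bases before the start, and C1s1 held the C/EBP motif on the other strand, 243 bases before the start. Cd55 held none of the 6. Among the 32851 promoter entries of the mouse, 2.4% held the C/EBP motif, 16.3% AGGTCA, 8.56% the ISRE core, 7.15% the E-box CACGTG, 8.3% the GAS motif TTCNNNGAA and 8.46% an NF-kB motif. The GAS motif matched once, in the C1ra entry after the start, and the E-box and NF-kB motifs matched no entry of these genes. A match describes letters only.

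C1ra and C1s1 encode the paired proteases of the C1 complex and lie 6.9 kb apart on chromosome 6, on opposite strands. C1ra (NCBI gene 50909, chr6:124512405-124523443, GRCm38) measured 66.3, 72.9, 71.2 and 67.6 FPKM in HFHG replicates 1 to 4 and 67.2, 71.7, 67.1 and 69.1 FPKM in LG replicates 1 to 4. The groups overlapped fully. Its log2 fold change was 0.01 with a 95% interval from -0.06 to 0.09 (SE 0.04, adjusted p = 0.74), and its sign turned under one scaling and without HFHG replicate 2. C1s1 (NCBI gene 50908, chr6:124530345-124542359) measured 125.7, 125.3, 124.4 and 122.1 FPKM in HFHG and 133.6, 131.2, 132.8 and 128.4 FPKM in LG. Every HFHG value was below every LG value, by a small margin. The log2 fold change was -0.08 (SE 0.02, adjusted p = 0.0081); after rescaling each library to the same FPKM sum it was -0.02 (adjusted p = 0.48) and after quantile normalization -0.02 (adjusted p = 0.59), so this call rests on the scaling.

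Serping1, the C1 inhibitor that inactivates both proteases, was the most abundant of the 8 transcripts in both media. It is NCBI gene 12258, at chr2:84765387-84775444 on the minus strand. Its level was 557, 547, 549 and 550.2 FPKM in HFHG and 300.2, 299, 300.5 and 315 FPKM in LG. All HFHG libraries lay far above all LG libraries, and LG replicate 4 was the highest of its group. The mean was 551 ± 4.13 FPKM (SD, n = 4) in HFHG against 304 ± 7.92 FPKM in LG, a log2 fold change of 0.86 (SE 0.02, adjusted p = 6.2e-12). Serping1 made up 54.4% to 55.4% of the summed FPKM of the 8 genes in HFHG and 42.9% to 44.6% in LG, while that sum was 996 to 1007 FPKM in HFHG and 695 to 708 FPKM in LG.

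C4b encodes the C4 protein that C1s cuts. The gene (NCBI gene 12268, chr17:34728380-34743882) had the lowest level of the 8, with 1.14, 1.02, 1.42 and 1.2 FPKM in HFHG and 1.48, 1.58, 1.69 and 1.64 FPKM in LG. The HFHG values were lower and more spread (coefficient of variation 14.1% against 5.66%), and HFHG replicate 3 came near the LG range. The log2 fold change was -0.40 (SE 0.11, adjusted p = 0.006), from 197 to 280 reads per HFHG library and 278 to 328 per LG library, and it was -0.25 with a pseudocount of 1 in place of 0.1. In the reference, 16.5% of the 100-base windows of the C4b transcript also occur in C4a, which was not analysed here, so how reads of the C4 pair were split is unknown.

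C3, the protein at which all pathways meet, is NCBI gene 12266 at chr17:57203970-57228136, and its upstream window is printed above. C3 measured 71.6, 75, 74.4 and 75.2 FPKM in HFHG and 52.9, 52.4, 51.5 and 50.8 FPKM in LG. The lowest HFHG value lay well above the highest LG value. The group means were 51.9 ± 0.935 FPKM in LG and 74 ± 1.67 FPKM in HFHG (SD, n = 4 each), and the log2 fold change was 0.51 (SE 0.03, adjusted p = 4.4e-09). None of the 100-base windows of the C3 transcript occurs in another GENCODE gene. The 3 tested genes whose profile over the 8 libraries was nearest to that of C3, by Euclidean distance of log2(FPKM + 0.1) after removing each gene's mean, were St3gal2 (a sialyltransferase, distance 0.0533), Prkca (a protein kinase C, 0.0571) and Nos2 (inducible nitric oxide synthase, 0.0581). Their log2 fold changes were 0.53, 0.50 and 0.51.

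Cfb encodes factor B, the protease partner of C3 in the alternative pathway. It lies on the minus strand at chr17:34856374-34862518 (NCBI gene 14962). The HFHG libraries measured 164.1, 166.4, 165.9 and 159.6 FPKM and the LG libraries 135.6, 131.5, 136.1 and 133.8 FPKM. The 4 HFHG values were all higher, with a gap larger than the spread within either group. The log2 fold change was 0.29 (SE 0.02, adjusted p = 2.6e-07). The GENCODE gene Gm20547 overlaps Cfb and C2 on the same strand and shares 81% of the 100-base windows of Cfb. The deposited values do not say how fragments in that overlap were counted, and the level of Cfb is uncertain to that extent.

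Cd55, or decay-accelerating factor, showed the largest change of the 8 genes. It is NCBI gene 13136 at chr1:130439027-130462744. The level was 11.9, 11.8, 11.3 and 12.2 FPKM in HFHG and 3.51, 4.07, 3.44 and 3.8 FPKM in LG. The lowest HFHG library was far above the highest LG library, and the means differed 3.18-fold. The log2 fold change was 1.64 with a 95% interval from 1.51 to 1.78 (SE 0.06, adjusted p = 1.4e-10), from 4946 to 5447 reads per HFHG library and 1469 to 1803 per LG library. A share of 6.86% of the 100-base windows of its GENCODE transcript (2533 bases) occurs in the neighbouring paralog Cd55b, 16 kb away. The gene length behind the FPKM was 12210 bases, and sequence beyond the transcript was not compared. Cd55b itself had 16 to 56 reads per HFHG library and 8 to 19 per LG library, and its groups overlapped.

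Cd59a encodes the inhibitor of the membrane pore and lies at chr2:104095801-104115354 (NCBI gene 12509). It measured 6.85, 7.18, 7.33 and 7.66 FPKM in HFHG and 4.66, 4.19, 4.47 and 4.79 FPKM in LG. The groups did not overlap. The log2 fold change was 0.67 (SE 0.06, adjusted p = 5.7e-07). Of the 100-base windows of its GENCODE transcript (1806 bases), 0.293% occur in the paralog Cd59b, which lies 4.61 kb upstream. The gene length behind the FPKM of Cd59a was 3331 bases, and the rest was not compared. The 3 regulators on the list (Serping1, Cd55 and Cd59a) were thus all called higher. Of the 5 components found, C3 and Cfb were called higher, C4b and C1s1 lower, and C1ra did not pass. The call of C1s1 rests on the scaling. Over all genes tested, 34.0% were called higher and 30.8% lower. Among the further regulators described below, Clu and Cd59b were higher, and Cr1l and Cfi were lower.

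**Figure D2:**
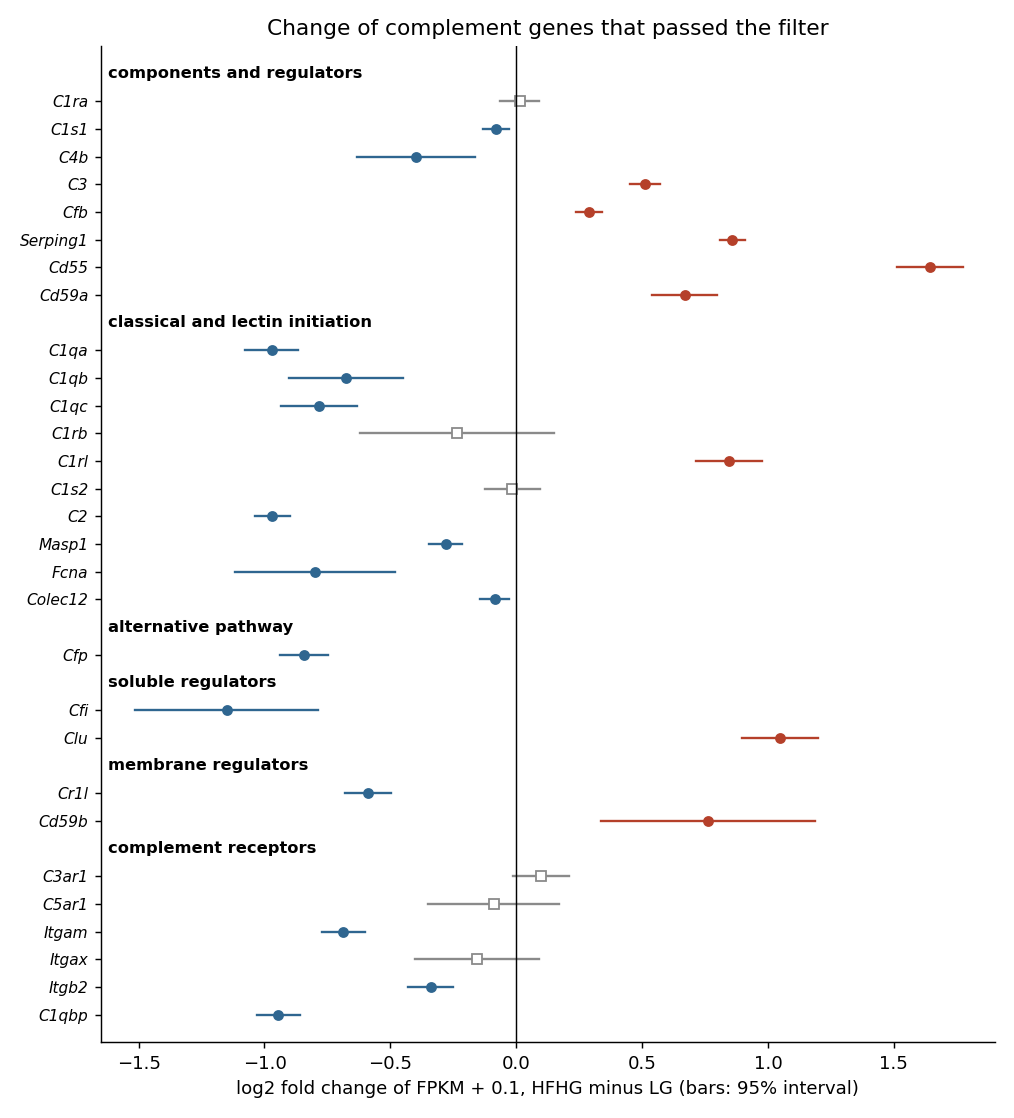
Log2 fold change (HFHG minus LG, FPKM + 0.1) with its 95% interval for the 8 complement genes and the 21 further complement genes that passed the filter on low values, by role. Filled circles passed an adjusted p of 0.05 (red higher, blue lower in HFHG) and open squares did not; Cd55 and Clu lie farthest to the right, and Cfi, C1qa and C2 farthest to the left.

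Ordered by FPKM, Serping1 stood first in both media. In HFHG it was followed by Cfb, C1s1, C3, C1ra, Cd55, Cd59a and C4b, and the neighbours C3 and C1ra overlapped in range. In LG the order was Serping1, Cfb, C1s1, C1ra, C3, Cd59a, Cd55 and C4b, and Cfb overlapped C1s1. C3 and C1ra, and likewise Cd55 and Cd59a, thus stood in the opposite order in the 2 media. These levels rest on the gene length used for the FPKM. The length recovered from the values was 0.927 to 1.05 times the longest protein-coding GENCODE transcript for C1ra, C1s1, C4b, C3, Cfb and Serping1, but 4.82 times for Cd55 (12210 against 2533 bases) and 1.84 times for Cd59a. With the same reads divided by the GENCODE length, the means would be 56.8 FPKM in HFHG and 17.9 FPKM in LG for Cd55. For Cd59a they would be 13.4 and 8.35 FPKM, below Cd55 in both media. Reads outside the GENCODE transcript would not count on that model, and their number is unknown. The order of Cd55 and Cd59a is therefore not settled. The same division would also put C1s1 (139 FPKM) above Cfb (135 FPKM) in LG. With the same reads, the ratio of the group means does not depend on the length. The log2 fold change depends on it only through the pseudocount of 0.1.

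Ratios of FPKM within a library show whether 2 genes changed by different amounts, since the scaling of the library cancels. The 5 ratios were each compared by an exact two-sided permutation test with Benjamini-Hochberg adjustment over the 5. C1s1/Serping1, protease over inhibitor, was 0.226, 0.229, 0.227 and 0.222 in HFHG and 0.445, 0.439, 0.442 and 0.407 in LG. All HFHG ratios were far below all LG ratios, with a change of -0.94 on the log2 scale (SE 0.03, exact permutation p = 0.0286, adjusted p = 0.0357). This p is the smallest the test can give. Since every HFHG value of C1s1 was lower and every HFHG value of Serping1 higher, it was fixed in advance and adds no evidence. Cd55/Cd59a was 1.74, 1.64, 1.54 and 1.59 in HFHG and 0.753, 0.97, 0.77 and 0.793 in LG, a change of 0.98 (SE 0.09, exact permutation p = 0.0286, adjusted p = 0.0357).

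The other 3 ratios concern components. C3/Cfb had a mean of 0.452 ± 0.0144 (SD, n = 4) in HFHG and 0.387 ± 0.00923 in LG, so C3 rose by more than Cfb (change 0.22, SE 0.03). C4b/C3 had means of 0.0162 ± 0.00228 and 0.0308 ± 0.00221, a change of -0.91 (SE 0.11). Neither ratio overlapped between the media, and both had the same p-values as above by the exact permutation test. For C4b/C3 that p was likewise fixed in advance, since all HFHG values were lower for C4b and higher for C3. C1ra/C1s1 overlapped, with 0.528 to 0.582 in HFHG and 0.503 to 0.547 in LG, and its change of 0.09 (SE 0.04) did not pass (exact permutation p = 0.114, adjusted p = 0.114).

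**Figure D3:**
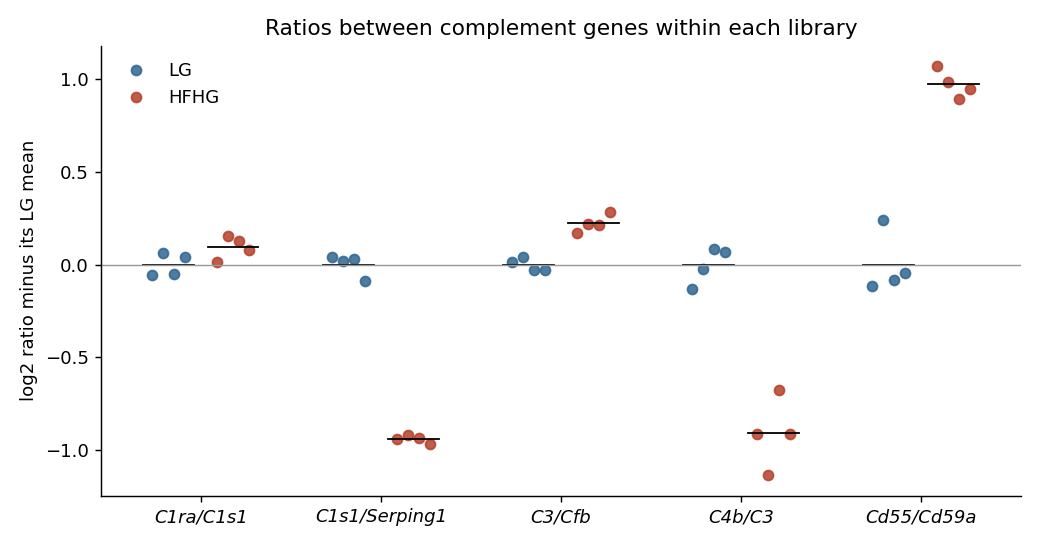
Log2 ratio of FPKM + 0.1 between pairs of complement genes in each library, less the LG mean of that ratio (LG blue, HFHG red, 4 libraries each, black line at the group mean). C1s1/Serping1 and C4b/C3 lie near -0.9 and Cd55/Cd59a near 1 in HFHG, C3/Cfb is slightly raised, and C1ra/C1s1 overlaps.

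A wider list of 48 complement genes was read from the same fit, 47 of which were found and 21 passed the filter on low values. Of these, 3 were higher and 13 lower in HFHG, 5 did not pass, and the median log2 fold change was -0.34; over all genes tested, 34.0% were called higher and 30.8% lower. Among the 10 tested genes of classical and lectin initiation, 1 was higher and 7 were lower. The 3 chains of C1q, the recognition protein that sits upstream of C1r and C1s, were all lower. C1qa measured 18.1, 19.1, 18.2 and 19.1 FPKM in HFHG and 37.7, 33.9, 35 and 39.8 FPKM in LG (log2 fold change -0.97, SE 0.05, adjusted p = 2.6e-09). The HFHG values were close to each other and far below the lowest LG value, that of replicate 2. C1qc fell by 0.78 and C1qb by 0.68 on the log2 scale, from means of 20.1 and 8.23 FPKM in LG, and the 3 genes lie next to each other on chromosome 4.

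C2, which is cut together with C4, measured 20.1, 20.5, 21 and 20.9 FPKM in HFHG and 38.9, 41, 41.1 and 40.8 FPKM in LG. Its log2 fold change was -0.97 (SE 0.03, adjusted p = 5.2e-11), opposite in sign to that of Cfb. The annotated start of Cfb lies 85 bases beyond the annotated end of C2 on the same strand. Gm20547 overlaps both genes, and how fragments in that overlap were counted is unknown for C2 as well. Fcna, a ficolin, fell by 0.80 (by 0.52 with a pseudocount of 1) and Masp1, a protease of the lectin pathway, fell by 0.28. Colec12, a scavenger receptor of the collectin family, was the most abundant gene of this class in the wider list (120 and 127 FPKM). It changed by -0.09 on the log2 scale (adjusted p = 0.0101). The change was -0.03 after rescaling to the same FPKM sum (adjusted p = 0.44) and -0.02 after quantile normalization (adjusted p = 0.65). C1rl, a C1r-like protease gene 1.76 kb upstream of C1ra on the same strand, was the one gene of the class that rose, from 4.98 ± 0.289 to 9.03 ± 0.529 FPKM (log2 fold change 0.85, SE 0.06, adjusted p = 7.7e-08).

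The paralogs of C1ra and C1s1 did not pass the test, although C1rb passed when the replicate number was added to the fit (adjusted p = 0.0041). C1rb, which with the pseudogene Gm18840 shares 35.9% of the 100-base windows of C1ra, measured 8.02, 7.7, 5.13 and 8.72 FPKM in HFHG and 8.73, 9.37, 6.01 and 10.8 FPKM in LG. Replicate 3 was the lowest library in both media, and the groups overlapped (log2 fold change -0.23, adjusted p = 0.26); without LG replicate 3 the value was -0.40 (adjusted p = 0.035), without HFHG replicate 3 it was -0.07 (adjusted p = 0.71) and without LG replicate 4 it was -0.12 (adjusted p = 0.58). The log2 fold change of C1s2, which shares 7.9% of the windows of C1s1, was -0.02 (SE 0.05, adjusted p = 0.79). The values of C1ra and C1rb are therefore uncertain where reads fell in shared sequence.

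**Figure D4:**
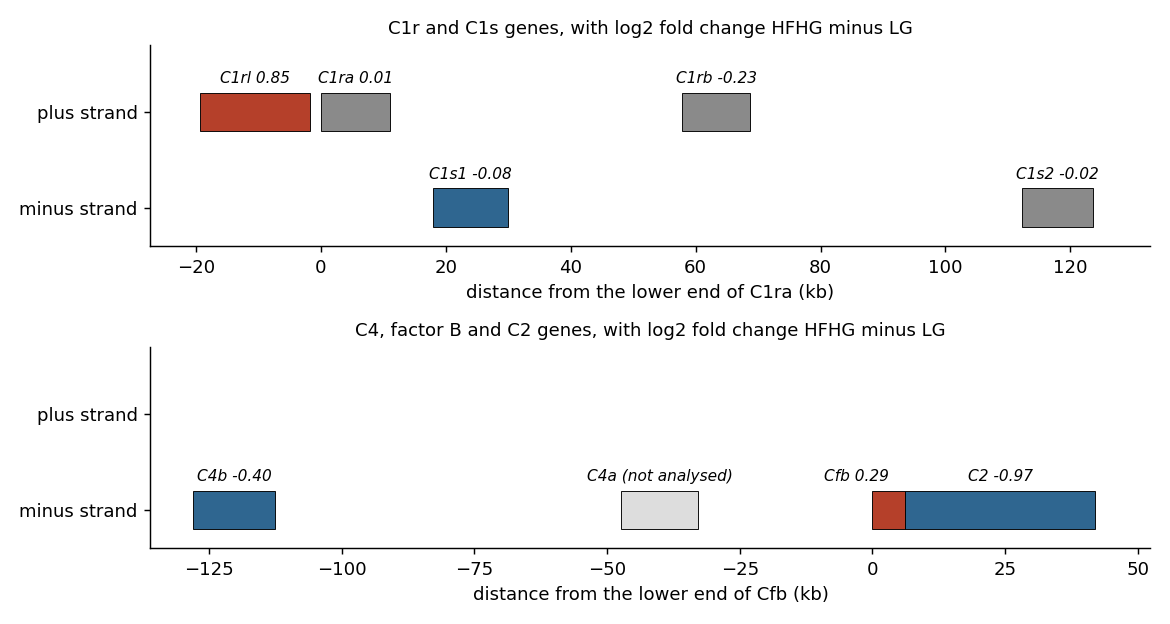
Positions of the C1r and C1s genes (upper) and of the C4, factor B and C2 genes (lower) by strand, in kb from the lower end of C1ra or Cfb, with log2 fold changes (red higher, blue lower, grey not passed, light grey not analysed). C1rl rose by 0.85 next to C1ra at 0.01, and C2 fell by 0.97 next to Cfb at 0.29.

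Of the other genes of the alternative pathway and the soluble regulators, 3 were tested and all passed, as did 64.8% of all genes tested. A further 6 soluble regulators were below the filter on low values. Cfp, which encodes properdin, measured 10.5 to 11.6 FPKM in HFHG and 19.6 to 21.1 FPKM in LG (log2 fold change -0.84, SE 0.04, adjusted p = 3.4e-09). Of the 2 tested soluble regulators, Clu (clusterin, which binds the forming pore) rose by 1.05 on the log2 scale and Cfi fell. Clu was at 13.4, 12.8, 14.5 and 12 FPKM in HFHG and 5.94, 7.08, 6.33 and 5.89 FPKM in LG. Cfi, the protease that inactivates cut C3 and C4, was at 0.641, 0.731, 0.838 and 0.485 FPKM in HFHG and 1.6, 1.27, 2.05 and 1.53 FPKM in LG. Its log2 fold change was -1.15 (SE 0.17, adjusted p = 5.6e-05), and -0.64 with a pseudocount of 1. Clu and Cfi were the only genes of the wider list past the fold rule; with a pseudocount of 1 neither was past it (Clu 0.95), and without LG replicate 2 C1qa was (-1.01).

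Among membrane regulators, Cd59b moved in the same direction as Cd59a, with a mean of 0.995 ± 0.151 FPKM in HFHG and 0.562 ± 0.181 FPKM in LG (log2 fold change 0.76, SE 0.20, adjusted p = 0.0042), and it was 0.36 with a pseudocount of 1. Cr1l, a regulator of C3 cutting that rodents carry, was the most abundant membrane regulator of the wider list, which leaves out Cd55 and Cd59a. It fell from 33.9 ± 1.22 to 22.5 ± 1.15 FPKM (log2 fold change -0.59, adjusted p = 7.1e-08). The loss of Cr1l and the gain of Cd55 and Cd59a were both present in all 4 HFHG libraries. Cd46, whose product is known mainly from the testis in mice, had 5 to 28 reads per library.

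The receptors were lower or did not pass. C1qbp, a mostly mitochondrial protein named for binding C1q, fell by 0.94 from 96.3 ± 2.54 FPKM in LG. The integrin genes Itgam and Itgb2, which together encode complement receptor 3, fell by 0.69 and 0.34, and Itgax did not pass (log2 fold change -0.16, adjusted p = 0.24). The anaphylatoxin receptor genes C3ar1 (log2 fold change 0.10, adjusted p = 0.10) and C5ar1 (-0.09, adjusted p = 0.52) did not pass either, with group means of 9.74 to 10.4 FPKM and 3.12 to 3.34 FPKM.

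None of the 7 genes of the terminal pathway passed the filter on low values, and their summed FPKM was 0.523 to 1.11 in HFHG and 0.267 to 0.537 in LG. C8g alone of them had non-overlapping groups, with 25, 39, 16 and 43 reads in HFHG and 11, 12, 7 and 6 reads in LG (exact two-sided permutation p = 0.0286, the smallest it can give). Hc, which encodes C5, had 43 reads in HFHG and 57 in LG when each group was summed, C7 had 47 and 27, and C6, C8a, C8b and C9 had 2 to 14 reads over each group. At this depth, mRNA for the pore proteins was near the limit of detection in both media.

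The genes C1qa, C1qb, C1qc, C2, Cfp, Itgam and Itgb2 are known from macrophages, and macrophage markers moved in part with them. Itgam belongs to both lists. These genes were named from those of the wider list that were called lower. The receptor genes C3ar1 (log2 fold change 0.10), C5ar1 (-0.09) and Itgax (-0.16) of that list did not pass. All 10 markers on the list were detected, of which 7 were lower in HFHG, 1 was higher and 2 did not pass, against 30.8% lower and 34.0% higher over all genes tested; their summed level was 1778 to 1828 FPKM in HFHG and 1941 to 2025 FPKM in LG. Without Lyz2, which makes up most of that sum, it was 159.5 to 165.8 FPKM in HFHG and 205 to 220 FPKM in LG. Mrc1 fell by 0.86, Tyrobp by 0.62, Adgre1 by 0.52 and Lyz2 by 0.11 on the log2 scale, whereas Cd14 rose by 0.26, and Ptprc (log2 fold change -0.19, adjusted p = 0.089) and Fcgr1 (0.09, adjusted p = 0.60) did not pass. No marker of the list was at 0. Of the 10 fibroblast and tendon markers, 8 were higher and 1 was lower. Their summed levels were 2408 to 2449 FPKM in HFHG and 1579 to 1608 FPKM in LG. Those 8 moved in the direction of Serping1, C3, Cfb, Cd55 and Cd59a, whereas C4b and C1s1 were called lower and C1ra did not pass. The groups of Scx, which is among those 8, overlapped. Mkx fell by 0.35 on the log2 scale, and Dcn did not pass (-0.01, adjusted p = 0.77). The part of either marker list in the complement results was not tested.

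**Figure D5:**
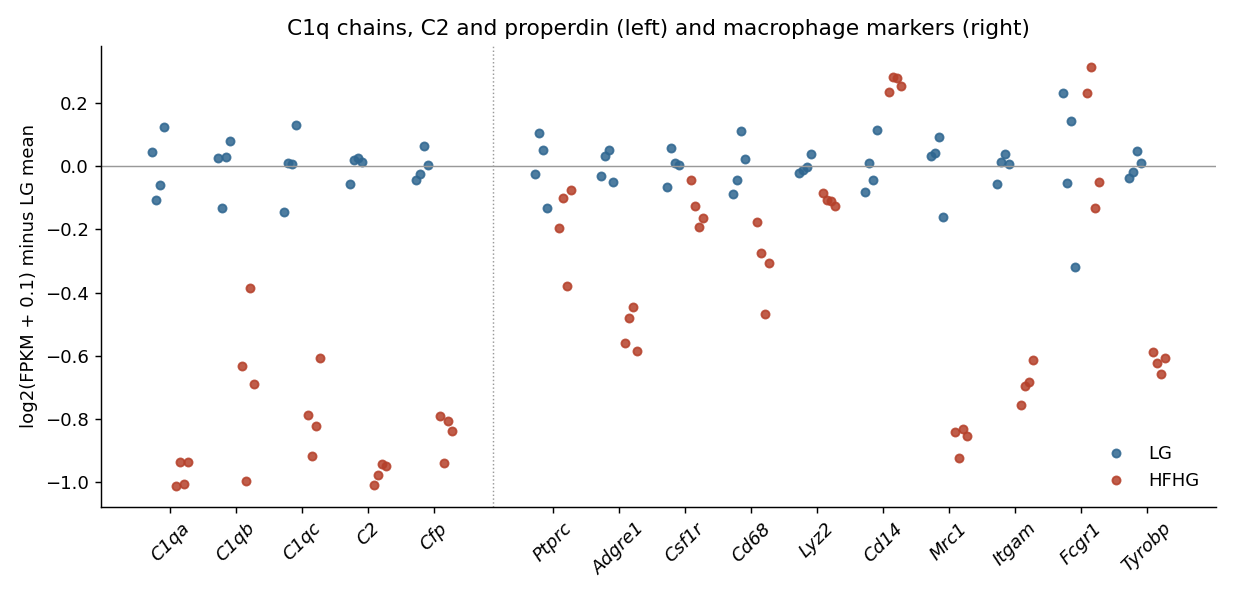
Log2(FPKM + 0.1) in each library less the LG mean of the gene (LG blue, HFHG red, 4 each) for the C1q chains, C2 and Cfp at the left of the dotted line and the 10 macrophage markers at its right. The HFHG points of C1qa and C2 lie near -1, those of Mrc1, Itgam, Tyrobp and Adgre1 between -0.4 and -1, those of Lyz2 near -0.1, and those of Cd14 above 0.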

How the data were processed

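Total mRNA of 8 cultures (4 HFHG with 25.5 mM glucose and 300 µM palmitic acid, 4 LG with 5.5 mM glucose) was sequenced by the authors with a stranded library kit. Groups and replicate numbers come from the sample labels, and doses from the study. The submitters' processing notes name HISAT2 2.1.0 and the build mm10; the counting program and annotation are not given in the sources used here. The authors deposited FPKM values per gene and library, with replicates not pooled. No per-sample column was left unused.

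Whole reads were recovered by finding the library totals and gene lengths that make the FPKM whole (within 0.0001 reads) in all libraries. For genes with very few reads several lengths can fit, and the length nearest to a GENCODE transcript was taken. The smallest read numbers given here therefore rest in part on that annotation. This succeeded for 99.99% of 19301 genes, and the recovered totals give the depth. Genes with at least 0.5 FPKM in at least 4 libraries were tested on log2(FPKM + 0.1) with limma 3.58.1 in R 4.3.3 (lmFit, eBayes with trend, HFHG minus LG, no covariate), with Benjamini-Hochberg adjustment over all 11710 genes. Fold changes are on the log2(FPKM + 0.1) scale, which understates the change of low genes. The fit was tested on simulated data with independent noise and a far smaller share of changed genes than was called here. That test therefore does not show how the fit performs on these data. Averaged over the tested genes, the variance between paired replicates of a group was 3.446 to 11.951 times sampling noise. This average does not hold for every gene. Counting error can make up the spread of genes with few reads and of some with more, such as C1qa in HFHG (707 to 754 reads). Ratios and single genes were compared by exact permutation.

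The wider list was read for its role classes; genes past both thresholds, the most abundant gene per class, C1q chains, paralogs and the genes of small counts were named, with values given also for other tested genes of the list. Some genes are not reported here. The members and lists were chosen with earlier results of these data known. Marker lists for tendon and fibroblasts, macrophages, adipocytes, endothelium and hepatocytes were read the same way. Of the 10 adipocyte markers, 2 were tested and both were higher (Fabp4, log2 fold change 1.36, and Lpl, 0.28). Among the 8 endothelial markers, 1 was higher and 1 lower (Tek 0.47, Vwf -1.20), and none of the 6 hepatocyte markers passed the filter. Over all genes tested, 34.0% were called higher and 30.8% lower. Gene positions and transcripts are from GENCODE M21 (GRCm38), promoters from RefSeq (GRCm38.p6). Alternatives changed the pseudocount, the filter, the scaling, the model and the libraries used.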

Additional observations from a re-analysis of the deposited data

Results flagged for a closer look

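In the groups of 4 libraries, 2 values stood apart from the other 3 by more than Dixon's critical value for the gap over the range, out of 58 groups examined for the tested complement genes; chance flags about 1 in 20 groups. Serping1 in LG replicate 4 was at 315 FPKM, with the other 3 LG libraries at 299 to 300.5 FPKM (gap over range 0.886), and without that library the log2 fold change of Serping1 was the highest of its leave-one-out values, at 0.88. C2 in LG replicate 1 was at 38.9 FPKM, with the other LG libraries at 40.8 to 41.1 FPKM (gap over range 0.859). Both values stayed on the LG side of the difference between the media.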

How the results depend on the processing

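C3, C4b, Cfb, Serping1, Cd55 and Cd59a kept their direction and stayed past the adjusted p of 0.05 under all alternatives run. The call of C1s1 was lost after rescaling each library to the same FPKM sum (-0.0212) and after quantile normalization (-0.0159), so that 1 gene in place of 2 was called lower under each. C1ra, which passed under none, turned to -0.0024 with median-ratio scaling and ranged from -0.00896 to 0.0362 with one library left out. C1s2, also never called, turned to 0.0428 after rescaling to the same FPKM sum and ranged from -0.0432 to 0.0228 with one library left out. The scaling alternatives moved the median log2 fold change of all genes from 0.017 to between -0.022 and 0.075. With one library left out, the counts of listed genes called stayed at 5 higher and 2 lower, and the wider list at 3 higher and 13 to 14 lower. With no filter on low values the wider list had 5 genes called higher in place of 3, since Cd55b and C8g then entered the test, and with a minimum of 1 FPKM it had 2.

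Deviations of same-numbered libraries correlated at -0.074 to -0.0056 over the tested genes, so no common shift was seen. This cannot tell whether same-numbered cultures shared an animal or a day, which is not given in the sources used here. With a replicate block, all 7 calls among the listed genes were kept, and C1rb passed (-0.23, adjusted p = 0.0041). The paired exact permutation test (sign flips) of the ratios under the replicate block cannot go below p = 0.125, and C1s1/Serping1 (-0.94), C3/Cfb (0.22), C4b/C3 (-0.91) and Cd55/Cd59a (0.98) each reached that p and so passed no threshold there. Without each library in turn those 4 ratios stayed past the threshold. Since their groups do not overlap, that outcome was fixed in advance and adds no evidence. Depth limits the terminal pathway genes, C8g, Cd55b and Cd46, which have few reads. Over the 21 further complement genes, 367 of 377 recomputed values kept their direction and side of the threshold; Colec12 lost its call under the same-sum rescaling and quantile normalization, C3ar1 (same-sum rescaling, 0.16), Itgax (quantile normalization, -0.28) and C1rb (replicate block, and without LG replicate 3) gained one, and the other 4 are those of C1s2.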
